A study of Mus musculus with 4 samples.

Results

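The genes described here are Notch1, Notch3 and Notch4, which encode Notch receptors, Dll4 and Jag1, which encode their ligands, Hey1 and Heyl, which encode transcriptional repressors switched on by Notch, the arterial ligand gene Efnb2, its venous receptor gene Ephb4, and Nr2f2, which encodes the venous transcription factor COUP-TFII. They were listed by symbol, and all 10 were found once each among the 31053 genes of the count matrices. In the GRCm38 annotation the receptor genes span chr2:26457903-26516663 (Notch1, minus strand), chr17:32120820-32166852 (Notch3, minus strand) and chr17:34564268-34588503 (Notch4, plus strand). The ligand genes span chr2:119325784-119335962 (Dll4, plus strand) and chr2:137081456-137116644 (Jag1, minus strand), and the target genes chr3:8663359-8667256 (Hey1, minus strand) and chr4:123233556-123249875 (Heyl, plus strand). Efnb2 spans chr8:8617434-8661242 (minus strand), Ephb4 chr5:137350109-137378669 (plus strand) and Nr2f2 chr7:70351944-70366735 (minus strand). Brain vascular-associated cells (BVACs) had been enriched with magnetic beads against CD31, an endothelial surface protein, and profiled by droplet single-cell RNA sequencing with a count of unique molecular identifiers (UMIs) per gene and cell. The mice were wild-type C57BL/6 males of 12 to 14 weeks. In chronic social defeat (CSD), a mouse lived beside an aggressive CD-1 mouse behind a divider and met it daily. Home cage (HC) mice also lived beside a CD-1 mouse, but across a fixed partition. Both conditions lasted 14 days. Each condition gave 2 libraries, and each library pooled the cells of 4 mice, so the library was the replicate throughout and the error between single mice could not be seen. The cerebellum, striatum, brainstem and olfactory bulbs were not in the tissue.

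The 4 libraries held 27297599 to 30361474 UMIs, and 2553 to 4934 barcodes per library, 14415 in all, passed the limits for a cell. Pairs of libraries shared 0 to 9 cell barcodes. Endothelial cells (EC) and the other classes were gated on marker genes that hold none of the 10 genes, so the gate did not use their levels. The choice of gate could still shift those levels, and values with classes from clusters of cells are given below. Cells called arterial EC were arterial-like EC with at least 2 arterial markers (477 cells, 74 to 142 a library), capillary EC had capillary markers and no arterial marker (2523 cells, 447 to 980 a library), and venous EC had at least 2 venous markers (152 cells, 32 to 51 a library). Pericytes (394 cells) and smooth muscle cells (SMC, 417 cells) made up the mural cells. Summed EC markers reached 16396 to 27978 CPM (counts per 1000000) in the arterial, capillary and venous EC and 151 to 682 CPM in mural cells, and all 8 EC markers were seen in each. A level is given below in CPM, the UMIs of a gene scaled to the UMI total of its class in a library, and it compares 1 gene across classes, never 1 gene with another.

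Notch receptors are cut when a ligand on a neighbouring cell binds them, and the freed inner part enters the nucleus and, with the DNA-binding protein RBPJ, switches on repressor genes of the Hes and Hey families. In developing vessels Dll4 and Notch signalling set arterial identity, in which ephrin-B2, the product of Efnb2, is the classical arterial surface mark, while COUP-TFII holds back Notch signalling in veins, where the receptor EphB4 is the classical mark. Mural cells of arteries and capillaries use Notch3, which endothelial Jag1 can engage, and Heyl is one of its known targets there.

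The start sites of 8 of the 10 genes were matched in RefSeq, and the 250 bases upstream of 4 of them are printed because Efnb2, Nr2f2, Ephb4 and Dll4 are the textbook artery and vein genes whose levels along the vessel are compared. They are read 5′ to 3′ on the coding strand from RefSeq on GRCm38.p6, at chr8:8661243-8661492 (minus strand) for Efnb2, chr7:70366747-70366996 (minus strand) for Nr2f2, chr5:137349859-137350108 (plus strand) for Ephb4 and chr2:119325534-119325783 (plus strand) for Dll4, and capitals mark CCAAT boxes and the GC box GGGCGG on either strand.
Efnb2: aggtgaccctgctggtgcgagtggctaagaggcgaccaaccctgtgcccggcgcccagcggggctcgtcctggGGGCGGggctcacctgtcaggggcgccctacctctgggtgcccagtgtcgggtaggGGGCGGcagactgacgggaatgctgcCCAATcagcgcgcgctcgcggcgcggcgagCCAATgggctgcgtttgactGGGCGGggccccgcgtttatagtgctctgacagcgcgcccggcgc
Nr2f2: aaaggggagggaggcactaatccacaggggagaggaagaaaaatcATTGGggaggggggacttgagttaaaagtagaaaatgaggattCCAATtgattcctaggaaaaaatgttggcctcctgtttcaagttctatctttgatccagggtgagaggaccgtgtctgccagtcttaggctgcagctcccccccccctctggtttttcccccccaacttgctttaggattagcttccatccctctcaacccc
Ephb4: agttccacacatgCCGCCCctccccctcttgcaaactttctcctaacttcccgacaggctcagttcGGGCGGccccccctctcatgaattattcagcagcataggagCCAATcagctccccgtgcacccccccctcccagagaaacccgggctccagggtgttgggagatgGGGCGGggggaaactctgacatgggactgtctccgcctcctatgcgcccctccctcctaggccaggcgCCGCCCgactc
Dll4: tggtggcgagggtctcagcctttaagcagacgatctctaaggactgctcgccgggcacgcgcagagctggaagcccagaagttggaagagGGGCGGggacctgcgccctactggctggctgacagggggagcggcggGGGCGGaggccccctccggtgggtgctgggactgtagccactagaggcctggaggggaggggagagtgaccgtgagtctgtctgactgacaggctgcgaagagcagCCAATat

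In these windows Efnb2 had CCAAT boxes 95 and 65 bases upstream of its start and 3 GC boxes, Dll4 had a CCAAT box 7 bases upstream and 2 GC boxes, Ephb4 had 1 CCAAT and 4 GC boxes, and Nr2f2 had 2 CCAAT boxes and no GC box. The Nr2f2 window was 50% G and C, against 72% for Efnb2, 64% for Ephb4 and 65.6% for Dll4. Over the 8 matched genes, 4 held CCAAT and 5 held GGGCGG, where 33.85% and 32.742% of 32851 promoters of the same length did. The core of the RBPJ site, TGGGAA, was in 0 of the 8 windows and in 21.594% of all promoters, and AGGTCA, a hormone receptor element that COUP-TFII can bind, was in 0 of 8 and in 14.024%. The E-box CACGTG was in 0 of 8 and in 6.021% of all promoters. Both strands were searched and no matches overlapped. The letters of a 250-base window were read, with no measurement of binding in these data.

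Between endothelium and mural cells the 10 genes fell on both sides. Dll4, Notch4, Hey1, Ephb4, Efnb2 and Notch1 were higher in EC, and Heyl, Notch3, Nr2f2 and Jag1 were higher in mural cells. All 10 passed the threshold, an adjusted p of 0.05 in edgeR's quasi-likelihood test with the library as a block, where 49.6% of the 9370 genes tested did (25.3% higher and 24.3% lower in EC). Of the 10, 6 were higher and 4 lower in EC. The median difference of the 10 was 0.88 log2, against 0.05 over all genes tested. Mural cells were pooled here from pericytes and SMC, and SMC gave 1846453 of their 2336654 UMIs.

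**Figure D1:**
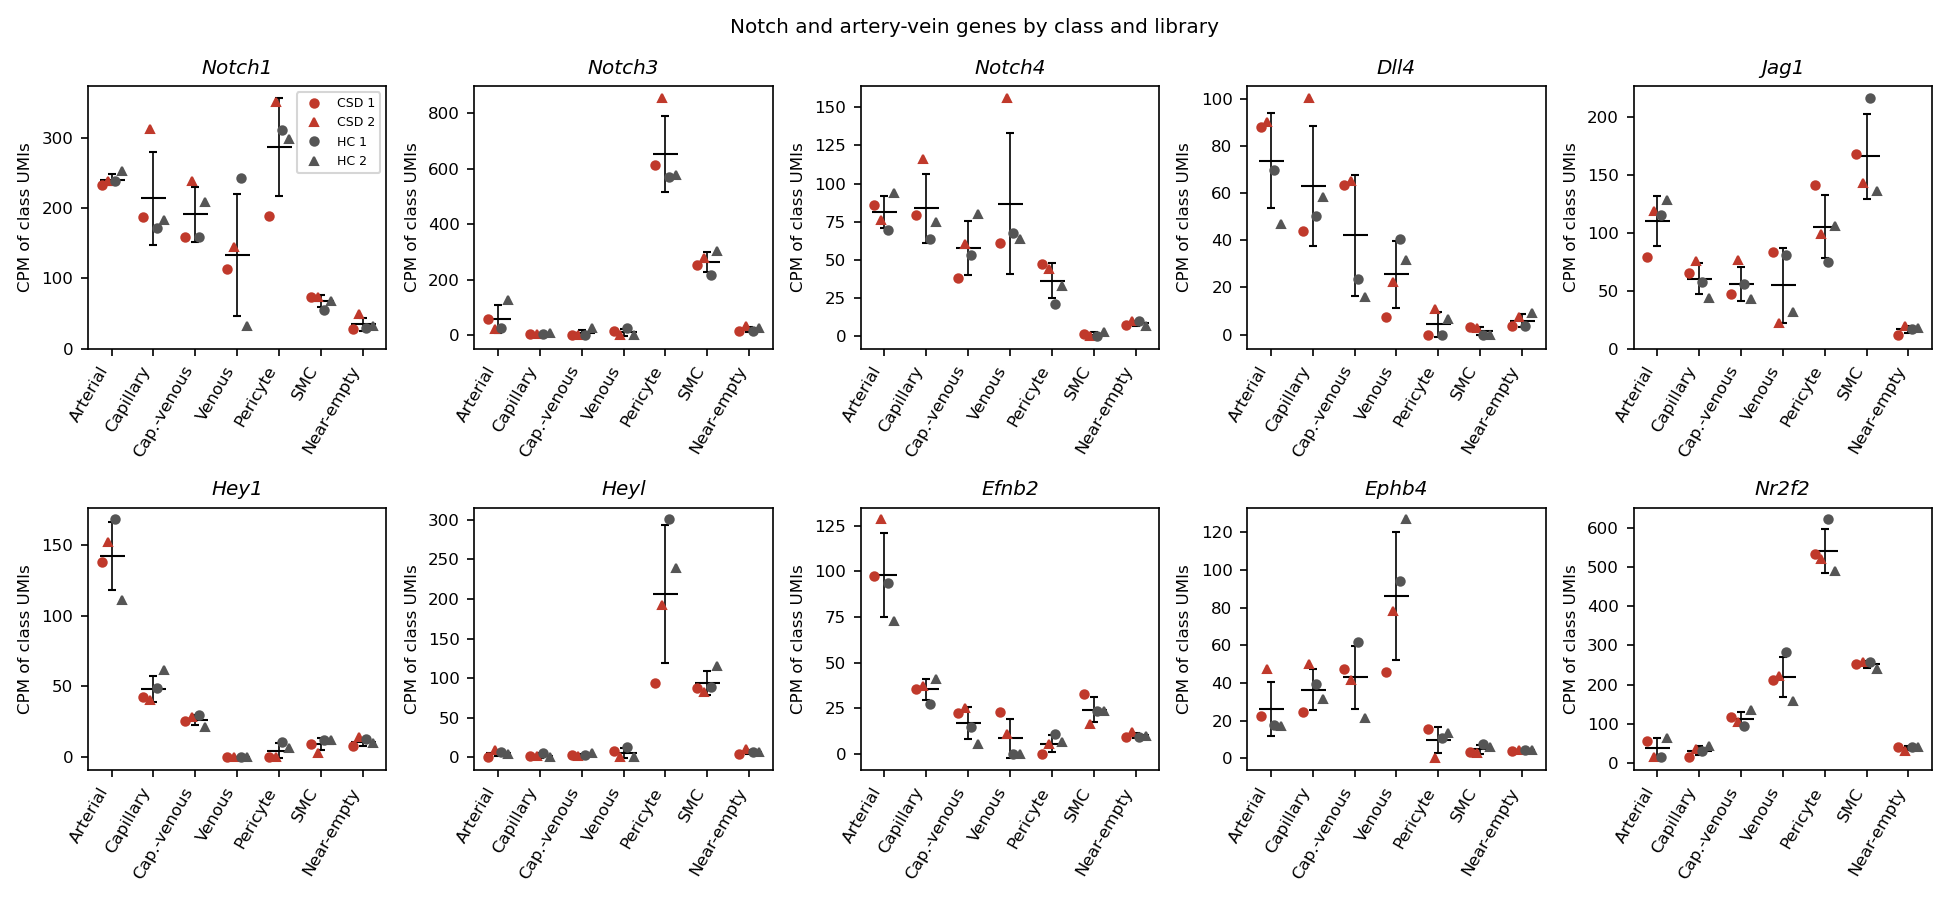
Level of each of the 10 genes by cell class, in CPM of the UMIs of the class (vertical axes, each gene on its own scale). Points are the 4 libraries, coloured by condition, and bars mark the mean ± SD (n = 4). Among the classes shown, Hey1 and Efnb2 are highest in arterial EC, and Notch3 and Heyl are highest in pericytes and SMC. Nr2f2 is highest in pericytes and, within the EC classes shown, in venous EC.

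Notch1, a receptor of endothelial and many other cells, was detected along the whole vascular tree. Its level in arterial EC was 233 CPM in CSD 1, 238 in CSD 2, 238 in HC 1 and 252 in HC 2, a mean of 240.2 ± 8.13 (SD, n = 4). Capillary EC gave 187, 312, 172 and 183 CPM in the same order of libraries, and venous EC gave 114, 145, 243 and 31.7 CPM. The arterial libraries lay close together, the capillary range enclosed them, and 1 UMI in the venous EC of HC 2 was worth 31.7 CPM. Pericytes held the highest mean, with 188, 351, 311 and 298 CPM, which overlapped all 3 EC classes, whereas SMC held 73.8, 74.2, 55.1 and 68.1 CPM. Notch1 was 0.66 ± 0.14 log2 (SE) higher in EC than in mural cells (adjusted p = 0.0013), and the lower mural level lay in the SMC. Neither arterial against capillary EC (0.25 ± 0.13 log2, adjusted p = 0.18) nor venous against capillary EC (-0.53 ± 0.26, adjusted p = 0.32) passed the threshold. The first passed without CSD 2 (0.43 log2, adjusted p = 0.0077) and with a stricter gate (0.42 log2, adjusted p = 0.017), and the second without HC 1 (-0.99 log2, adjusted p = 0.039).

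Notch3, the receptor of mural cells, had its highest level in pericytes, at 612 CPM in CSD 1, 855 in CSD 2, 569 in HC 1 and 577 in HC 2. In SMC it stood at 253, 277, 218 and 302 CPM, and the pericyte, SMC and arterial EC ranges did not overlap. Capillary EC held 3.04 to 7.41 CPM. The difference of EC from mural cells was -4.56 ± 0.29 log2 (adjusted p = 1.3e-08). At a depth of 500 UMIs per cell, 27.2% of pericytes and 12.2% of SMC had a Notch3 UMI, against 51.5% and 59.0% at their own depths (medians 1027.5 and 3521 UMIs), and 0.238% of capillary EC did (0.595% unthinned, median 992 UMIs).

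Notch4, an endothelial receptor, was read in all 3 EC classes with no difference called between them, and its venous level rested on 29 UMIs. Notch4 read 85.9, 76.1, 69.9 and 93.9 CPM in arterial EC, 79.7, 116, 63.8 and 75.1 CPM in capillary EC, and 60.8, 156, 67.4 and 63.4 CPM in venous EC. These ranges overlapped, and the differences were 0.03 ± 0.18 log2 for arterial against capillary EC (adjusted p = 0.94) and 0.10 ± 0.33 log2 for venous against capillary EC (adjusted p = 0.95). SMC held 0 to 2.96 CPM. Pericytes held 47.1, 43.8, 21.5 and 33.2 CPM, below every EC library of these 3 classes and above every SMC library, and the sum of 8 EC markers in these pericytes was 236 to 1121 CPM. What part those markers' cells had in the pericyte level was not tested. Notch4 was 2.96 ± 0.26 log2 higher in EC than in mural cells (adjusted p = 2.8e-07).

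Among the ligands, Dll4, which acts from arterial and sprouting EC, was read almost only in endothelium among the classes measured. Its level was 88.2, 90.4, 69.9 and 47.0 CPM in arterial EC, 43.9, 100.4, 50.2 and 58.2 CPM in capillary EC, and 7.60, 22.3, 40.4 and 31.7 CPM in venous EC. The arterial and capillary ranges overlapped, and every venous library lay below every capillary one, although the 31.7 CPM of HC 2 was a single UMI. Pericytes and SMC held 0 to 10.96 CPM, microglia at most 0.619 CPM, and barcodes with too few UMIs for a cell held 3.41 to 9.06 CPM. The difference between EC and mural cells was 4.36 ± 0.34 log2 (adjusted p = 9.2e-08). Neither the arterial (0.33 ± 0.20 log2, adjusted p = 0.27) nor the venous difference from capillary EC (-1.45 ± 0.52 log2, adjusted p = 0.099) was called, and 7 UMIs were read in venous EC. With classes from clusters both passed (0.53 log2, adjusted p = 0.018, and -1.86 log2, adjusted p = 0.016).

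Jag1, the ligand that EC present to mural cells and that SMC also make, was highest in SMC, at 168, 143, 216 and 136 CPM in CSD 1, CSD 2, HC 1 and HC 2. Arterial EC held 79.2, 119, 116 and 128 CPM, which was below every SMC library and above every capillary library, where it was 65.1, 75.3, 57.8 and 43.4 CPM. Pericytes held 75.1 to 141 CPM, and venous EC 22.3 to 83.6 CPM. The arterial level was 0.89 ± 0.18 log2 above the capillary one (adjusted p = 2.7e-05). The difference of EC from mural cells was -1.35 ± 0.15 log2 (adjusted p = 3.6e-06), although arterial EC and pericytes overlapped.

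The target gene Hey1 was separated by vessel type without overlap. In arterial EC its level was 138 CPM in CSD 1, 152 in CSD 2, 168 in HC 1 and 111 in HC 2, and in capillary EC it was 42.3, 40.7, 48.6 and 61.4 CPM. Venous EC held no Hey1 UMI in any of the 4 libraries, 0 of 327120 UMIs, where 3 UMIs would have been 9.17 CPM. In HC 2 alone a single UMI would have been 31.7 CPM. Every arterial library thus lay above every capillary library, and the difference was 1.59 ± 0.18 log2 (adjusted p = 1.2e-15). Set against that limit of 3 UMIs over the 4 libraries together, Hey1 was at least 15.9-fold lower in venous than in arterial EC. By the same limit it was at least 5.36-fold lower than in capillary EC. The exact 95% interval of the count reaches 11.3 CPM, which would give lower bounds. The edgeR tests gave adjusted p-values of 5.1e-06 and 3.9e-04, but Hey1 passed their count filter only through its arterial or capillary level. The bounds are for the gated cells. In venous EC from clusters Hey1 read 7.78, 5.38, 10.8 and 0 CPM (5 UMIs), and with Vcam1 and Icam1 added to the venous markers it read 4.61, 10.3, 17.5 and 0 CPM (6 UMIs, -2.23 log2 from capillary EC), below every capillary library in both. With genes of inflammation left out of the venous markers, 67 venous EC were left, Hey1 was again at 0 UMIs, now of 93222, and the difference from capillary EC did not pass (adjusted p = 0.25). Cells with both capillary and venous markers held 21.4 to 29.5 CPM, between the capillary and the venous libraries. At 500 UMIs per cell, 6.50% of arterial EC (exact 95% interval 4.46 to 9.10%) and 2.46% of capillary EC (1.89 to 3.14%) had a Hey1 UMI, and 0 of 152 venous EC did, which allows a share of up to 1.97% by a limit of 3 cells and 2.398% by the exact 95% interval. Microglia, which should lack it, gave 0.088% at that depth. Without thinning the shares were 28.5%, 5.27%, 0% and 0.329%, at median depths of 2173 UMIs in arterial, 992 in capillary and 1114.5 in venous EC.

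Heyl, the other target, was a mural gene. Its level was 94.1, 192, 300.4 and 239 CPM in pericytes and 88.0, 82.4, 88.6 and 115 CPM in SMC, and the pericyte value exceeded the SMC value within each library, although the ranges overlapped through CSD 1. Arterial, capillary and venous EC held 0 to 13.5 CPM, at or near the 4.54 to 10.3 CPM of near-empty barcodes, and too few UMIs for a test between EC classes. EC differed from mural cells by -5.47 ± 0.22 log2 (adjusted p = 1.2e-10), the widest difference between these 2 groups among the 10 genes.

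Efnb2, the arterial surface ligand, stood at 97.3 CPM in CSD 1, 128 in CSD 2, 93.9 in HC 1 and 72.6 in HC 2 in arterial EC. Capillary EC held 35.8, 37.1, 27.4 and 41.3 CPM, and venous EC held 22.8, 11.1, 0 and 0 CPM from 4 UMIs. The 3 EC classes were in order with no overlap between neighbouring ranges. In the venous EC of HC 2, however, a single UMI would have read 31.7 CPM, within the capillary range. Arterial EC exceeded capillary EC by 1.49 ± 0.21 log2 (adjusted p = 1.6e-10) and venous EC by 2.98 ± 0.55 log2 (adjusted p = 4.7e-04), while the step from capillary to venous EC (-1.47 ± 0.68 log2, adjusted p = 0.28) did not pass, although it did with classes from clusters (-2.19 log2, adjusted p = 0.0071). At 500 UMIs a cell, 6.29% of arterial, 1.78% of capillary and 0.658% of venous EC had an Efnb2 UMI (21.0%, 4.08% and 2.63% unthinned). SMC held 16.5 to 33.0 CPM and astrocytes 27.3 to 44.6 CPM.

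Ephb4, the venous receptor of ephrin-B2, ran the other way by level. Venous EC held 45.6, 78.0, 94.3 and 127 CPM, capillary EC held 24.4, 50.2, 39.5 and 31.8 CPM, and arterial EC held 22.6, 47.6, 17.5 and 17.1 CPM. The venous value exceeded the capillary one within each library, but the ranges overlapped and the venous level rested on 24 UMIs. The venous difference from capillary EC was 1.13 ± 0.40 log2 (adjusted p = 0.093) and the arterial one -0.50 ± 0.30 log2 (adjusted p = 0.27), so neither was called, and with classes from clusters the venous difference was 0.82 log2 (adjusted p = 0.043). Pericytes and SMC held 0 to 15.7 CPM, and EC exceeded mural cells by 2.54 ± 0.34 log2 (adjusted p = 2.3e-05).

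Nr2f2 marked venous EC within the endothelium and mural cells outside it. Venous EC held 213 CPM in CSD 1, 223 in CSD 2, 283 in HC 1 and 159 in HC 2, capillary EC held 14.6, 35.9, 30.4 and 42.3 CPM, and arterial EC held 56.5, 14.3, 15.3 and 64.0 CPM. All 4 venous libraries lay above all capillary and arterial ones. Near-empty barcodes held 30.0 to 41.1 CPM, within the capillary and the arterial range. The venous level was 2.97 ± 0.30 log2 above the capillary (adjusted p = 6.2e-14), and the arterial level differed from the venous one by -2.69 ± 0.37 log2 (adjusted p = 1.5e-05). Cells with capillary and venous markers together held 94.4 to 134 CPM, between both classes. Pericytes held 491 to 622 CPM and SMC 240 to 258 CPM, apart from each other, and astrocytes held 111 to 275 CPM. Microglia held 0.693 to 4.59 CPM. At 500 UMIs a cell, 22.8% of pericytes, 11.99% of SMC, 7.90% of venous EC, 1.55% of capillary EC, 1.47% of arterial EC and 0.175% of microglia had an Nr2f2 UMI.

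**Figure D2:**
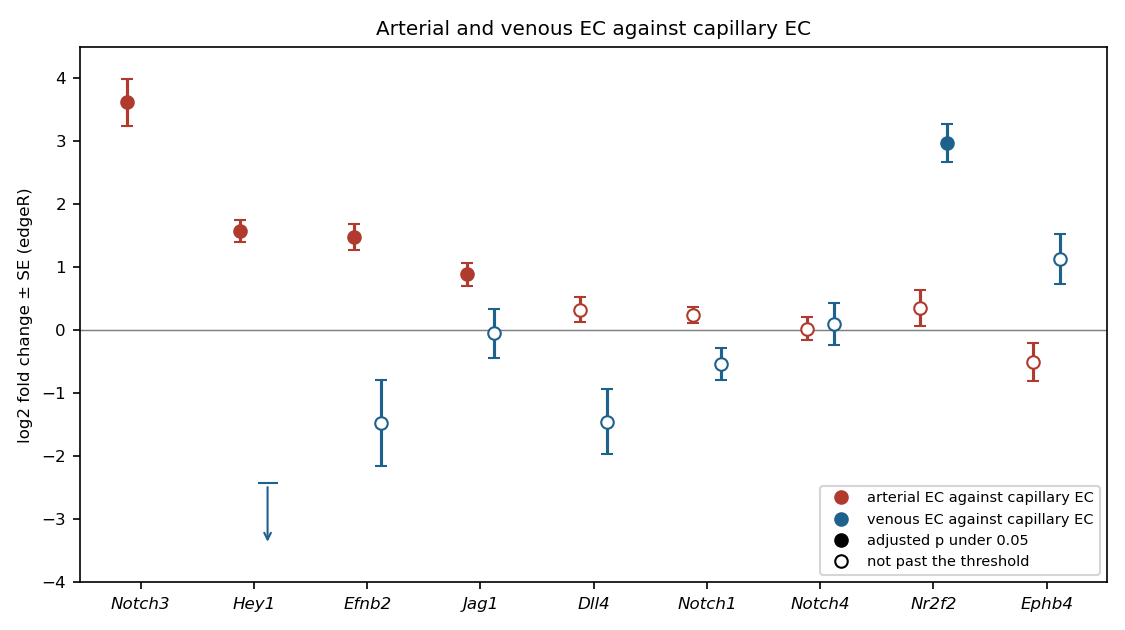
Difference in level of each tested gene between arterial and capillary EC (red) and between venous and capillary EC (blue), as log2 fold change ± SE from edgeR on 4 libraries. Filled points passed the threshold. The bar with an arrow for Hey1 in venous EC marks the limit that 3 UMIs allow, since none was read there.

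Counted over the comparisons, 4 of the 9 genes tested passed between arterial and capillary EC (Notch3, Hey1, Efnb2 and Jag1), all of them higher in arterial EC, where 19% of all 6589 genes passed, 10.3% as higher and 8.71% as lower. The median of the 9 was 0.36 log2, against -0.0042 over all genes. That middle value was the one of Nr2f2, which was not called and became -0.95 log2 with classes from clusters. Between venous and capillary EC, 2 of 8 passed (Nr2f2 higher, Hey1 lower), against 4.99% of all 5512 genes tested (3.14% higher and 1.85% lower). Between arterial and venous EC, 3 of 6 passed (Hey1 and Efnb2 higher in arterial EC, Nr2f2 lower), against 12.2% of 3036 genes (5.07% higher and 7.15% lower). Notch1, Notch4, Dll4 and Ephb4 passed in none of the 3 as reported, and Dll4 and Ephb4 fell under the count filter of the last. Any gene could pass that filter by its level in a single class. Hey1, with 0 UMIs in venous EC, entered the venous comparisons only through the other class. The shares called among the 10 thus depend in part on the filter. Between arterial and venous EC, Notch1 (0.68 ± 0.27 log2, adjusted p = 0.12) passed in 4 alternatives, with no filter (0.93), without HC 1 (1.05), with Vcam1 and Icam1 added to the venous markers (0.55) and with genes of inflammation left out of them (1.504), at adjusted p-values of 0.021 to 0.049. The arterial gate did not use these genes, but its 8 markers were not limited to arterial EC. They summed to 4012 to 7791 CPM in arterial EC, 1803 to 11154 CPM in SMC and 1931 to 2553 CPM in pericytes. Capillary EC were gated to hold none of them. The arterial differences are read again below in EC without mural markers. The venous gate held cells in which genes of inflammation were also high. Its own markers included Lcn2, Ch25h, Tmem252 and Il1r1, the genes of inflammation left out in the alternative above. Vcam1, an adhesion gene of activated endothelium, had a mean of 2163 CPM in venous and 13.4 CPM in capillary EC. In venous EC Vcam1 read 2522 and 4501 CPM in CSD, against 741 and 888 CPM in HC. The paper also used it, with Icam1 and Vwf, to identify venous EC. The part of Vcam1 in the venous differences was not tested.

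Notch3 was also higher in arterial than in capillary EC, and mural markers were higher there too. Notch3 read 58.8 CPM in CSD 1, 23.8 in CSD 2, 24.03 in HC 1 and 128 in HC 2 in arterial EC. That is 3.62 ± 0.38 log2 above capillary EC (adjusted p = 1.8e-17 by edgeR). Near-empty barcodes held 13.9 to 33.1 CPM of Notch3, a range that encloses the arterial values of CSD 2 and HC 1. All 6 pericyte markers were seen in the arterial EC, with a sum of 245 to 679 CPM, against 62.2 to 139 CPM in capillary EC and 18649 to 29079 CPM in pericytes, and all 7 SMC markers summed to 238 to 602 CPM, against 105 to 217 CPM and 52174 to 57341 CPM in SMC. Arterial EC held 8.98% of the pericyte level of Notch3 and 22.3% of its SMC level. They held 0.418% to 3.83% of the 6 pericyte markers in pericytes and 0.291% to 2.03% of the 7 SMC markers in SMC. The gate used those 13 markers and kept them low in EC, but not Notch3, so these shares cannot be compared. Of mural genes outside the gate, arterial EC held 2.47% of the pericyte level of Heyl and 6.93% of that of Nr2f2. Rgs5 had a mean of 1302 CPM in arterial EC and 6404 CPM in pericytes. In a repeat chosen after seeing these values, EC with any UMI of the 13 mural markers were left out, which kept 231 of 477 arterial and 1926 of 2523 capillary EC. Notch3 was then 0, 0, 0 and 10.4 CPM in arterial EC, 1 UMI in all, and fell under the filter of the test. When classes came from clusters of cells, Notch3 read 18.9, 2.70, 18.1 and 30.03 CPM in arterial EC against 0 to 8.84 CPM in capillary EC, again under the filter. Those arterial values lay within or below the near-empty range. The part that mural RNA had in the Notch3 difference was not tested.

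The other arterial differences were read in those cells too. Without mural markers, Hey1 stood at 145, 139, 131 and 104 CPM in arterial EC against 43.0 to 59.8 CPM in capillary EC, a difference of 1.39 ± 0.26 log2 (adjusted p = 4.1e-06). Efnb2 differed by 1.58 ± 0.31 log2 (adjusted p = 6.0e-06) and Jag1 by 1.04 ± 0.27 log2 (adjusted p = 0.0017). Nr2f2 in arterial EC, which had been highest in CSD 1 and HC 2, read 22.9, 9.28, 9.36 and 20.9 CPM in these cells, against 13.6, 38.0, 24.5 and 41.8 CPM in capillary EC. When classes were taken from clusters of cells instead of gates, arterial EC held 16.4 to 22.7 CPM of Nr2f2, below the 28.7 to 51.9 CPM of capillary EC. The difference of 0.36 ± 0.28 log2 (adjusted p = 0.44) became -0.95 (adjusted p = 0.0032), both by edgeR. Near-empty barcodes held 30.0 to 41.1 CPM of Nr2f2, above those arterial levels. In venous EC without mural markers Nr2f2 remained 2.43 log2 above capillary EC (adjusted p = 1.5e-05). Hey1 had 0 UMIs in them, with an adjusted p of 0.033 against capillary EC.

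**Figure D3:**
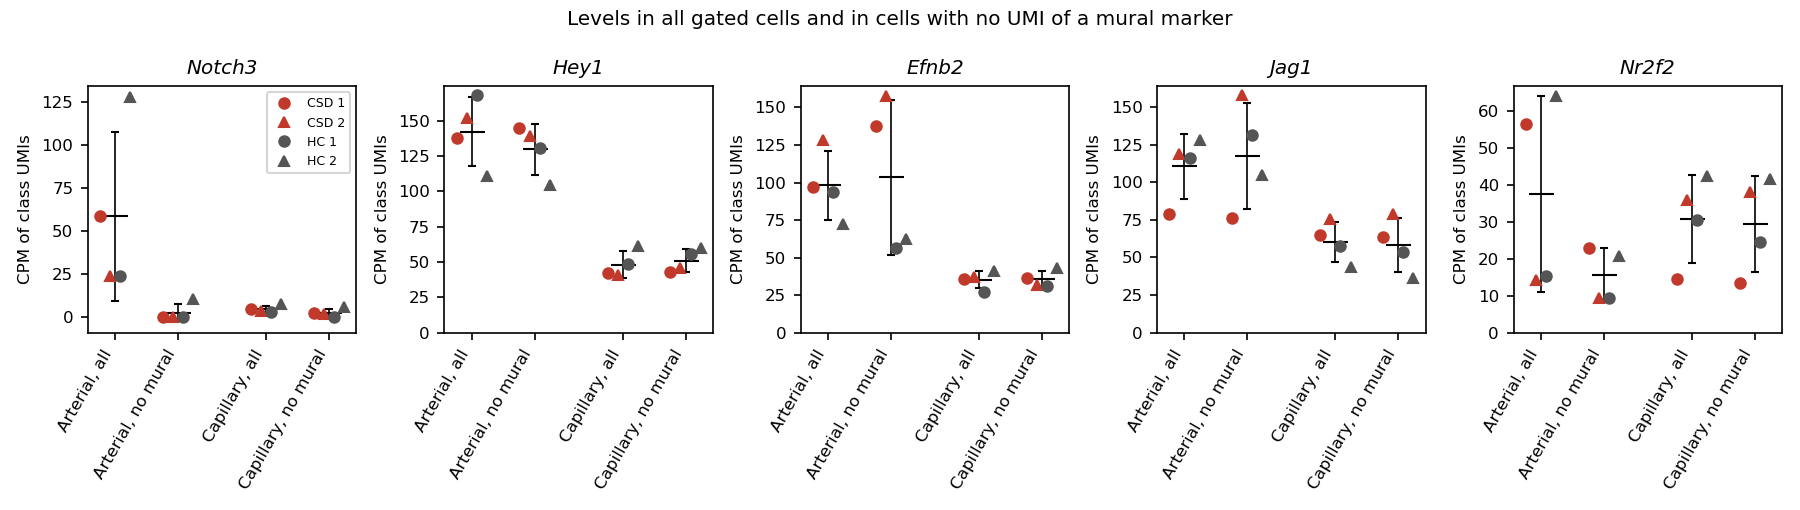
Levels in CPM (vertical axes) of Notch3, Hey1, Efnb2, Jag1 and Nr2f2 in arterial and capillary EC, for all gated cells and for those with no UMI of the 13 pericyte and SMC markers. Points are the 4 libraries and bars the mean ± SD. The arterial Notch3 points drop to between 0 and 10.4 CPM in the cells without mural markers, while Hey1 stays above 104 CPM in arterial EC.

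Within the mural wall all 5 genes that could be tested differed between SMC and pericytes, as did 48.7% of the 3973 genes tested (24.4% higher and 24.3% lower in SMC). The difference of SMC from pericytes was -1.95 ± 0.20 log2 for Notch1 (adjusted p = 8.4e-11), -1.16 ± 0.15 log2 for Notch3 (adjusted p = 7.1e-09), -1.01 ± 0.22 log2 for Heyl (adjusted p = 1.3e-04) and -0.95 ± 0.14 log2 for Nr2f2 (adjusted p = 4.9e-07). Jag1 was 0.79 ± 0.23 log2 higher in SMC (adjusted p = 0.0039), a call that did not hold without HC 1 (0.59, adjusted p = 0.057) or with DESeq2 (0.85, adjusted p = 0.056). Among these 5, the receptor genes Notch1 and Notch3 and the target gene Heyl were thus higher in pericytes, and the ligand gene Jag1 was higher in SMC. Other genes of the pathway went the other way. Hes1 was 1.10 log2 higher in SMC, and the receptor gene Notch2 read 29.6 to 76.8 CPM in SMC against 15.7 to 26.5 CPM in pericytes. The median of the 5 was -1.01 log2, against -0.02 over all genes tested. Dll4, Hey1, Efnb2, Ephb4 and Notch4 were too low in one or both for the test.

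**Figure D4:**
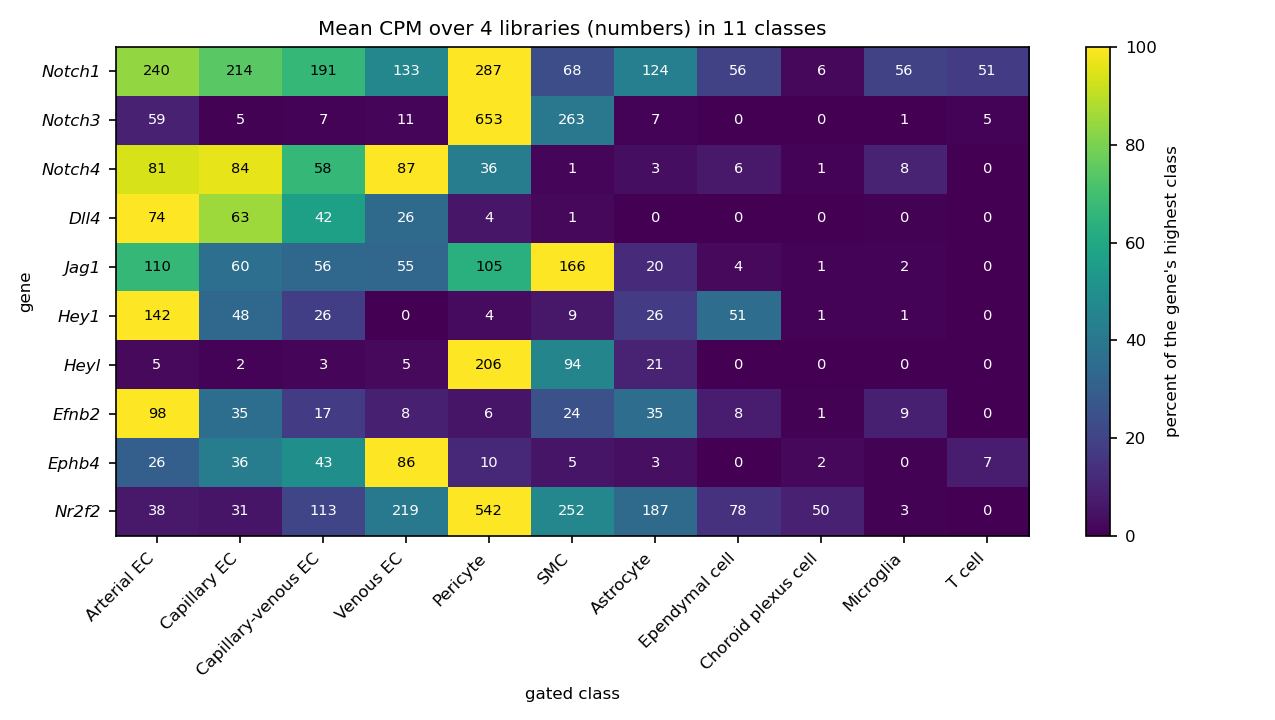
Mean level of the 10 genes in the gated classes, with the mean CPM over 4 libraries printed in each cell and colour as the percent of the gene's own highest class. EC classes lead for Dll4, Hey1, Efnb2, Notch4 and Ephb4, pericytes lead for Notch1, Notch3, Heyl and Nr2f2, and SMC lead for Jag1.

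Outside the vessel wall the levels were lower, with some exceptions. Ependymal cells, which line the ventricles, held Hey1 at 87.3, 0, 65.6 and 49.99 CPM, overlapping capillary EC. Astrocytes held Notch1 at 63.5 to 196 CPM, which overlapped every EC class but arterial. Choroid plexus cells held Nr2f2 at 41.3 to 58.9 CPM and Notch1 at 3.62 to 7.81 CPM. Microglia (4563 cells) held Notch1 at 47.5 to 61.0 CPM, above the 28.0 to 48.8 CPM of near-empty barcodes in mean, and none of the other 9 genes exceeded 11.8 CPM there.

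Other genes of the pathway were taken from lists of 45 Notch and 34 artery-vein genes. Between arterial and capillary EC, 2 of 27 tested Notch genes were higher and 1 lower in arterial EC, 11.1% against the 19% over all genes. Nrarp, a Notch target that dampens the signal, was 1.63 log2 higher (adjusted p = 3.0e-04 by edgeR) at 26.2 to 36.2 CPM against 9.53 to 10.8 CPM. It also read 47.1 to 96.6 CPM in pericytes. Without mural markers, Nrarp read 10.4 to 45.8 CPM in arterial (14 UMIs) and 4.46 to 10.6 CPM in capillary EC (20 UMIs), and these ranges overlapped. The ligand gene Jag2 was 0.44 log2 higher (adjusted p = 0.010), and Itch, a ubiquitin ligase gene, differed by -0.85 log2 (adjusted p = 7.8e-05), both by edgeR. Of 20 artery-vein genes tested, 4 were higher and 4 lower, 40% against 19%. Gja4, which encodes connexin 37, was 4.16 log2 higher (adjusted p = 1.6e-24), and it was also a mural gene here at 314 to 482 CPM in pericytes. Arterial EC without mural markers held 10.4 to 92.8 CPM (24 UMIs), against 0 to 4.46 CPM in such capillary EC (6 UMIs). The part of mural RNA in the Nrarp and Gja4 differences was not tested. The guidance receptor gene Unc5b and the arterial factor gene Sox17 were higher by 1.18 and 0.76 log2 (adjusted p = 2.7e-06 and 1.0e-10), and the VEGF receptor gene Kdr and the co-receptor genes Nrp1 and Nrp2 differed by -1.35, -1.03 and -1.66 log2 (adjusted p = 2.7e-20, 2.6e-10 and 8.0e-04).

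Between venous and capillary EC, 1 of 23 tested Notch genes was higher and none lower, and 3 of 18 artery-vein genes were higher and 1 lower, against 4.99% over all genes. Nrp2, the neuropilin of veins and lymphatics, read 198, 111, 418 and 190 CPM in venous EC against 22.8 to 38.1 CPM in capillary EC, a difference of 2.95 ± 0.30 log2 (adjusted p = 1.1e-13), and lay at 4.37 to 19.0 CPM in arterial EC. Sox7 and Epha4 were 1.16 and 0.99 log2 higher in venous than in capillary EC, and Nrp1 fell by 1.41 log2. Bhlhe40, a repressor gene listed with the Notch genes and known to answer to many stimuli, was 1.19 log2 higher (adjusted p = 5.0e-06). Against venous EC directly, arterial EC had 1 Notch gene higher and 2 lower of 14, and 2 artery-vein genes higher and 4 lower of 12, against 12.2% over all genes. Sox17 and Sox18 were 1.08 and 0.99 log2 higher and Jag2 0.88 log2 higher in arterial EC, and Hes1 differed by -0.67 log2 (adjusted p = 0.019).

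In the endothelium against mural comparison 12 of 38 tested Notch genes were higher in EC and 9 lower, and 18 of 23 artery-vein genes were higher and 4 lower, against 25.3% higher and 24.3% lower over all genes. Jag2 (4.25 log2), and the fringe genes Mfng (6.75) and Lfng (3.996), which modify Notch receptors with sugars, led in EC. Hey2 (-4.90), Dtx3 (-2.85) and the receptor gene Notch2 (-2.59) led in mural cells, and Hey2 read 78.4 to 175 CPM in pericytes and 93.4 to 124 CPM in SMC against 3.33 to 5.90 CPM in all EC. Between SMC and pericytes, 2 of 15 Notch genes were higher in SMC (Bhlhe40 and Hes1, by 1.84 and 1.10 log2) and 3 were lower (Dtx3, Itch and Snw1), and 2 of 4 artery-vein genes were lower (Eng and Nr2f1), against 48.7% of all genes in either direction.

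CSD was compared with HC in arterial, capillary, venous and all EC, pericytes and SMC, and none of the 10 genes passed the threshold there. Cells with both capillary and venous markers and the classes outside the vessel wall were not tested for CSD. edgeR's quasi-likelihood test called 0 of 8 in arterial EC (0.288% of all genes tested were called), 0 of 8 in capillary EC (0.22%), 0 of 2 in venous EC (0%), 0 of 9 in all EC (0.0804%), 0 of 5 in pericytes (0.0436%) and 0 of 6 in SMC (0%). At an unadjusted p under 0.05 the counts were 0, 3, 0, 1, 0 and 0, where 6.48%, 8.82%, 6.02%, 8.25%, 4.88% and 2.89% of all genes tested had one, and DESeq2 called 0 in each. The difference of the CSD effect between arterial and capillary EC passed for 0 of 9 (0% of all genes), with 1 at an unadjusted p under 0.05 (4.44% of all genes). With 2 libraries per condition these p-values measure the spread between pools of mice, and a miss does not show that levels were alike.

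Dll4 came nearest. Over all EC it read 59.6 CPM in CSD 1 and 89.4 in CSD 2, and 45.4 in HC 1 and 49.2 in HC 2. Both CSD libraries were above both HC libraries, as they were for Notch1, Notch4, Efnb2 and Nr2f2, while Heyl lay lower in both CSD libraries. How many of all genes had CSD and HC ranges apart was not counted. With 2 libraries per condition, ranges often lie apart without any effect, so these separations are not read as a result. Nr2f2 differed by 0.27 log2 in all EC, but by -0.45 in capillary, -0.15 in venous and 0.41 in arterial EC. The Dll4 difference was 0.73 ± 0.21 log2, with an unadjusted p of 0.0084 and an adjusted p of 0.35 by edgeR. Over the 12 alternatives tried its difference ranged from 0.42 to 0.97 log2, and without CSD 1 it passed with an adjusted p of 4.1e-05, where the lone CSD library was assumed to vary like the HC ones. In arterial EC Dll4 differed by 0.57 ± 0.32 log2 (adjusted p = 0.82) and in capillary EC by 0.48 ± 0.30 log2 (adjusted p = 0.70). In capillary EC CSD 1, at 43.9 CPM, lay below both HC libraries. Leaving out 1 library moved that difference between -0.245 (without CSD 2) and 0.88 (without CSD 1). Cells with both capillary and venous markers had Dll4 means of 64.3 CPM in CSD and 19.8 CPM in HC. Venous EC went the other way, with 14.9 CPM in CSD and 36.1 CPM in HC, from 7 UMIs. Neither was tested. All EC, 4866 cells, held these cells too, and also EC in none of the subclasses named here.

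In capillary EC, Notch1, Notch4 and Jag1 differed by 0.53 ± 0.22, 0.53 ± 0.23 and 0.54 ± 0.24 log2 between CSD and HC, with adjusted p-values of 0.48, 0.50 and 0.54 by edgeR. For each of the 3 both CSD libraries were above both HC ones. The share of all genes so separated was again not counted, so separations in this class are not read as a result either. Hey1 was apart in the other direction, with means of 41.5 CPM in CSD and 55.0 CPM in HC. For Notch1 the distance came mainly from CSD 2, at 312 CPM against 187 CPM in CSD 1 and 172 and 183 CPM in HC. In all EC the summed arterial markers read 1313 and 527 CPM in CSD 1 and CSD 2, against 1489 and 1194 CPM in HC. The summed SMC markers read 243 and 114 CPM in CSD, against 229 and 283 CPM in HC. Their part in the Notch3 difference of all EC was not tested. The summed venous markers of all EC read 1365 and 1585 CPM in CSD, against 720 and 579 CPM in HC. Their part in the Nr2f2 difference of all EC was not tested. Without CSD 1, which left a lone CSD library, Notch1 (0.81 log2), Notch4 (0.72) and Dll4 (0.88) passed in capillary EC. Notch1 (0.54) and Notch3 (-1.95) then passed in all EC. Calls over all genes rose with them, from 17 of 7740 to 389 of 8758 in capillary EC and from 8 of 9955 to 550 of 10411 in all EC. Without CSD 2, HC 1 or HC 2, none of the 10 passed in these classes.

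The genes of the vessel axis were not called in any class tested either. Hey1 differed by 0.02 ± 0.27 log2 in arterial EC and by -0.40 ± 0.25 log2 in capillary EC (adjusted p = 0.996 and 0.71), and Efnb2 by 0.38 ± 0.29 log2 in arterial EC (adjusted p = 0.93). Nr2f2 differed by -0.15 ± 0.39 log2 in venous EC (adjusted p = 0.999). In that class the summed venous markers read 6192 and 10060 CPM in CSD against 4096 and 4154 CPM in HC, and a difference in the cells gated and a difference in their RNA cannot be told apart. In pericytes Heyl read 94.1 and 192 CPM in CSD against 300.4 and 239 CPM in HC, and differed by -0.66 ± 0.33 log2 (adjusted p = 0.92 by edgeR). Notch3 differed there by 0.45 ± 0.23 log2 (adjusted p = 0.92 by edgeR). The CSD and HC ranges of both genes were apart, in opposite directions. How many of all genes were apart was not counted, so this is not read as a result. In SMC the widest difference was 0.27 ± 0.27 log2, for Notch1. None of the other 45 Notch and 34 artery-vein genes passed for CSD against HC by edgeR in any EC or mural class tested. At an unadjusted p under 0.05 in that test there were at most 4 Notch genes (all EC) and 3 artery-vein genes (arterial EC) in a class.

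**Figure D5:**
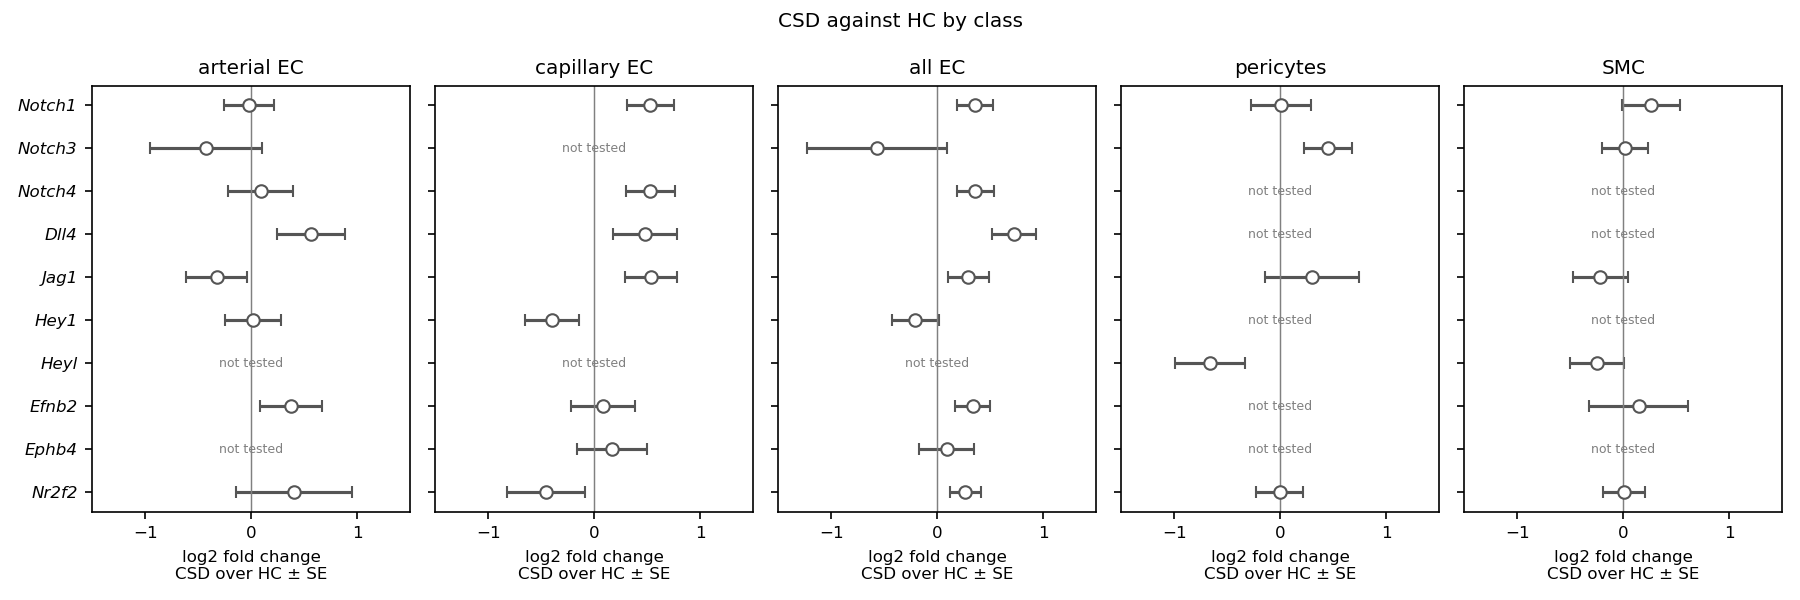
CSD against HC for each tested gene in arterial, capillary and all EC, pericytes and SMC. Values are log2 fold change ± SE from edgeR with 2 libraries per condition (horizontal axis, positive is higher in CSD). No point passed the threshold, and Dll4 in all EC, at 0.73 ± 0.21, lies farthest from 0 in units of its SE.

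The genes whose levels over 11 gated classes were most like each member were named by Pearson's r of log2(mean CPM + 10), a description in which all classes share the same 4 libraries. For Notch3 they were Cspg4, Gja4 and Serpini1 (r = 0.98 each), the first of which encodes the mural proteoglycan NG2. For Heyl they were Cped1 (0.99), Gucy1b1 and Gucy1a2 (0.98 each), the last of which encode subunits of the nitric oxide receptor. For Notch4 they were Eng (0.98), Plekhg5 and Emcn (0.97 each), for Dll4 Kif26a and Srarp (0.99 each) and C130074G19Rik (0.98), and for Ephb4 Helz2 (0.98), Adcy4 and Thbd (0.97 each), the last of which encodes the endothelial anticoagulant thrombomodulin. Jag1 went with Ebf1 and Rhoj (0.97 each) and Ecm1 (0.96), and Notch1 with Plin2 (0.96), Nudcd3 and Anapc16. The likeness was weaker for Hey1 (Unc119b at 0.89, Uba1 at 0.85, Gpatch11 at 0.83), Efnb2 (Alpl at 0.88, Alox12 at 0.86, Psmd7 at 0.85) and Nr2f2 (Dag1 and Adcy6 at 0.89, Ptpn11 at 0.88).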

How the data were processed

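Single-cell RNA sequencing of BVACs from mouse brain was analysed in 2 CSD and 2 HC libraries, each a pool of 4 mice. The files the authors deposited hold raw UMI counts, whole numbers by gene and by barcode, unfiltered for cells and not normalized. The submitters' processing notes name Cell Ranger 4.0, the matrix header names 3.1.0, and the sources used here disagree on the version.

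A barcode with at least 500 UMIs, at least 250 genes and at most 25% UMIs of mitochondrial genes was kept as a cell. Barcodes of at most 100 UMIs gave the near-empty level. Cells were gated into classes on marker lists without any of the 10 genes or the pathway genes. A class needed at least 3 markers (2 for lists of 3) and 1.5 times the next class, and the 1810 cells that met no gate, which include cells with markers of 2 classes, were left out. No doublet caller was run. The limits of the gates were set after marker levels and class sizes had been seen. Of the arterial, capillary and venous EC, 35.2%, 24.7% and 38.2% stood at the minimum of their gate. The 10 genes and the gene lists were chosen with earlier results of these data known.

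Summed UMI counts of each class in each library were tested with edgeR 4.0.16 (quasi-likelihood test, TMM factors, filterByExpr) in R 4.3.3, two-sided, with Benjamini-Hochberg adjustment over all genes tested and a threshold of 0.05. Comparisons between classes had the library as a block, and CSD against HC had none. Labels do not say whether libraries came from separate days. A fold against a class at 0 was computed as a bound from 3 UMIs. Intervals and such limits cover counting error only. Cells were thinned to 500 UMIs with a fixed seed for shares of cells. The scripts were tested on simulated counts. Alternatives were DESeq2 1.42.0, no filter on low counts, no library block or a replicate block, each library left out, stricter gates, other venous markers and clusters of cells made with scanpy 1.11.5 without these genes. Named genes were the 10 genes, for each the 3 genes most like it over classes with at least 50 CPM in a class, and up to 3 other pathway genes per direction and comparison with the largest change. Gene positions are those of GRCm38.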

Additional observations from a re-analysis of the deposited data

How the results depend on the processing

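Leaving out each library in turn gave 4 to 5 of the genes called between arterial and capillary EC, 2 to 3 between venous and capillary EC, 3 to 4 between arterial and venous EC, 4 to 5 between SMC and pericytes and 10 between endothelium and mural cells. For CSD against HC it gave 0 to 3 in capillary EC and 0 to 3 in all EC, each time 3 without CSD 1, and 0 in the other classes. Of 155 counts under the alternatives, 146 stayed within 1.5 times the reported count. Between venous and capillary EC, where 2 were called (and 275 of all 5512 genes), clusters of cells gave 5 (591 of 6734), adding Vcam1 and Icam1 to the venous markers gave 4 (562 of 5617), and leaving genes of inflammation out of them gave 1 (74 of 5423). Between arterial and venous EC, where 3 were called (371 of 3036), no filter on low counts gave 6 (506 of 14472), clusters gave 5 (640 of 4090), adding Vcam1 and Icam1 gave 6 (572 of 3552), and EC without a mural marker gave 0 (151 of 1226), where Notch1 alone was left to test because the others fell under the filter. Nr2f2 between arterial and capillary EC reversed with clusters (-0.95). Of 490 single values between classes, 453 kept direction and side of the threshold and 20 uncalled values changed sign. DESeq2 gave no adjusted p for Hey1 between venous and capillary EC. A replicate block for CSD against HC called 0 of the 10 in every class tested. Calls over all genes rose from 15 to 42 in arterial, 17 to 111 in capillary and 8 to 29 in all EC. The libraries share only numbers: the 2 pairs' deviations correlated at -0.0078 to 0.221 over the classes. Venous EC, with 32 to 51 cells a library, limit the depth of every venous value.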

Other observations

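Classes too small for a value in each library were read as pooled UMIs over the 4 libraries, with exact Poisson intervals that cover counting error only. Fibroblasts (68 cells) held Nr2f2 at 387 CPM (95% interval 307 to 482) and Jag1 at 102 CPM (62.9 to 155), with 2 UMIs of Notch3 and 2 of Heyl. Oligodendrocyte precursor cells (66 cells) held Notch1 at 162 CPM (113 to 224) and Hey1 at 67.4 CPM (37.7 to 111), with 0 UMIs of Notch3, Dll4, Heyl and Ephb4. Fenestrated EC (39 cells), the leaky endothelium of choroid plexus and circumventricular organs, held Efnb2 at 161 CPM (95.4 to 254), where arterial EC had a mean of 98.1 CPM. They held Notch1 at 277 CPM (188 to 394), Notch4 at 125 CPM (68.5 to 210) and Nr2f2 at 17.9 CPM (2.17 to 64.6). These pooled values have no replicate error and were not tested.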
